A study of Mus musculus with 8 samples.

Results

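The genes described here are 40 genes of cholesterol and fatty acid synthesis, followed in double-positive (DP) thymocytes, immature T cells bearing CD4 together with CD8. They were chosen by gene symbol and not by measured values. Of the 40, 38 had a probe set that the platform annotation gives to a single gene, among 18193 such genes in all, and each gene was represented by whichever of its probe sets was brightest on average (log2 scale) over the 8 arrays. The low-signal filter was passed by 37 of them, out of 9951 genes tested in the whole series. Nr1h2 and Soat1 are not analysed here. Both probe sets of Scd1, a stearoyl-CoA desaturase, stayed below the filter limit of 33.8 signal units on all 8 arrays, so Scd1 was not tested. Fdft1, Lss, Hsd17b7, Elovl1 and Elovl5 were read by probe sets whose suffix marks possible binding of related transcripts.

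RNA of each mouse was measured on its own one-colour Affymetrix array, with 4 mice labelled Mutant and 4 labelled Control. The Mutant mice are called c-Myb deficient in the genotype field and Mybf/w Cd4-Cre Tcra-/- in the source names. The Control mice are called c-Myb sufficient in the genotype field and Mybf/f Cd4-Cre Tcra-/- in the source names. Read literally, these fields contradict each other, since the source names give the floxed homozygous Myb genotype to the Control mice, so the groups are called Mutant and Control as titled. Every difference is Mutant minus Control, and every direction rests on these titles. All mice were 4 to 5 weeks old, all lacked the T-cell receptor alpha gene, which stops thymocytes before positive selection, and all carried Cd4-Cre, a recombinase driven by Cd4 regulatory sequences and thus active in the T lineage from about the double-positive stage. Cells were enriched with an antibody against CD4 on magnetic columns, which does not by itself remove other CD4-bearing cells. The titles number the mice as biological replicates.

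Myb was not lower in the mice labelled Mutant. The brightest of its 3 probe sets read 10512 to 11754 in Mutant and 8327 to 10388 in Control mice, another read 5458 to 6396 in Mutant and 4183 to 5158 in Control mice, and the last read 7021 to 7707 in Mutant and 6457 to 8464 in Control mice. No source used here places these probes inside or outside the floxed exons, so they neither check the titles nor settle the conflict. Markers of double-positive cells were bright, with Cd8a at 11073 in Mutant and 10714 in Control mice on average and Rag1 at 10824 in Mutant and 11396 in Control mice, while 2 of 9 tested markers, Rag2 and Dntt, fell. Xist, the RNA of the inactive X chromosome, read 4129 to 5736 in the 4 Mutant mice and 4358.5 in Control replicate 1, against 23.4 to 36.7 in Control replicates 2, 3 and 4, so the groups also differed in sex makeup. Mutant replicate 4 had an 18S ribosomal RNA control signal of 7143, against 676 to 1459 on the other 7 arrays. The summed signals of some marker lists of other cell types also separated the groups, while those of other lists overlapped. The summed signal of 5 erythroid markers was 1005 to 1479 in Mutant and 264 to 478 in Control mice, through Car2, while both alpha globin genes stayed at or below 114. The sum of 7 gamma-delta, NKT and NK cell markers was 3154 to 4354 in Mutant and 2041 to 2598 in Control mice, mostly through Gzma. Of the others, Klrd1 read 75.5 to 107.8 in Mutant and 14.0 to 74.2 in Control mice (difference 0.78, limma adjusted p = 0.155). Ncr1, a marker of NK cells, was below 33.8 on all arrays. The sum of 6 B cell markers was 7649 to 8597 in Mutant and 7142 to 7364 in Control mice, mostly through Ighm. Of the 2 tested B cell markers 0 were called, against 9.97% of all genes tested. Ighm differed by 0.18 (limma adjusted p = 0.0765) and Cd79b by 0.25 (adjusted p = 0.399). Of the dim others, Cd79a and Ms4a1 averaged higher in Mutant mice, and Pax5 and Blnk averaged lower. The sum of 4 adipocyte markers was 35.6 to 163 in Mutant and 16.2 to 54.2 in Control mice, and the defining marker Adipoq stayed at or below 17.8. Of 12 markers of thymic epithelium and stroma, whose sum was 669 to 926 in Mutant and 871 to 947 in Control mice, Pdgfrb rose by 1.19 on the log2 scale (limma adjusted p = 0.0280), Epcam differed by -0.57 (adjusted p = 0.0796), and Col3a1 was dim, at 20.7 to 31.4 in Mutant and 3.5 to 10.7 in Control mice. The part of sex, RNA quality and these cells in the differences below was not tested, and in such bulk RNA fewer cells of a type and less RNA per cell cannot be told apart.

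Cholesterol is built from acetyl-CoA through mevalonate, squalene and lanosterol. When sterols run low, the protein Scap carries the membrane-bound transcription factors SREBP-1 and SREBP-2, encoded by Srebf1 and Srebf2, to the Golgi apparatus, where they are cut free to switch on the genes of sterol and fatty acid synthesis. Insig1 and Insig2 encode the anchors that hold Scap back when sterols are plentiful. Liver X receptors sense oxysterols and raise the cholesterol exporters Abca1 and Abcg1. Dividing lymphocytes draw on sterol and fatty acid synthesis to build membrane.

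Sequences upstream of 31 members were at hand from RefSeq (GRCm38.p6), as 41 windows of 300 bases around annotated transcription starts, with more than 1 window for some genes. They are shown for 2 early enzymes that were lowest of the 8 arrays in 1 Control mouse described below (Hmgcs1, Idi1), for the 2 cholesterol enzymes that differed between the groups in opposite directions (Mvd, Dhcr7), and for the exporter Abca1. Capitals mark every match, on either strand and with overlaps allowed, to the core of the sterol regulatory element (TCACNCCA), the CCAAT box bound by NF-Y, a usual partner of SREBP, the E-box CACGTG, or a Myb word, which is CAACTG or TAACTG, or else CAACGG or TAACGG. The rest is in lower case, and each is read 5′ to 3′ in the direction of the gene.
Hmgcs1, chr13:119690101-119690400, plus strand: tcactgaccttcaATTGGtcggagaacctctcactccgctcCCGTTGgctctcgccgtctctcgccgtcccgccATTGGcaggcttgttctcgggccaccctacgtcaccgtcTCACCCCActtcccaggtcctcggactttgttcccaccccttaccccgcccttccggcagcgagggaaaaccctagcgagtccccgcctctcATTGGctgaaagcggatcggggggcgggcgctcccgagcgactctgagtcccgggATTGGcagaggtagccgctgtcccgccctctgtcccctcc
Idi1, chr13:8885356-8885655, plus strand: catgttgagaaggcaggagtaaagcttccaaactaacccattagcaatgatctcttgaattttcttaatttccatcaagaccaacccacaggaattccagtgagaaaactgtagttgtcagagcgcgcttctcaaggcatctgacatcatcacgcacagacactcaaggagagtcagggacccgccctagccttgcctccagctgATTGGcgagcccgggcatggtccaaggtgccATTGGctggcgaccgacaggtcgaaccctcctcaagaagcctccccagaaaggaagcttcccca
Mvd, chr8:122443373-122443672, minus strand: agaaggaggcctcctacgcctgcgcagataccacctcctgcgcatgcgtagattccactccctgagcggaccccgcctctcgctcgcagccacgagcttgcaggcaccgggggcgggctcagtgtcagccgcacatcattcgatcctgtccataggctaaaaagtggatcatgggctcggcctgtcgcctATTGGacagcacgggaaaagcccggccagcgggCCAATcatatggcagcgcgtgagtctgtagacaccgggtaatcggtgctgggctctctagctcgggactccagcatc
Dhcr7, chr7:143829964-143830263, plus strand: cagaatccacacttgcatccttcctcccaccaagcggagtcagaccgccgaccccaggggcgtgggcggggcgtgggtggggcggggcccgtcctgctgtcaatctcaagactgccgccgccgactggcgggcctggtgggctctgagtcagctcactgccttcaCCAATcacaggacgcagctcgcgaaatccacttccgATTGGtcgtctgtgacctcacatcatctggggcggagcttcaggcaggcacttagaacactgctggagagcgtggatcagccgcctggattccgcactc
Abca1, chr4:53159846-53160145, minus strand: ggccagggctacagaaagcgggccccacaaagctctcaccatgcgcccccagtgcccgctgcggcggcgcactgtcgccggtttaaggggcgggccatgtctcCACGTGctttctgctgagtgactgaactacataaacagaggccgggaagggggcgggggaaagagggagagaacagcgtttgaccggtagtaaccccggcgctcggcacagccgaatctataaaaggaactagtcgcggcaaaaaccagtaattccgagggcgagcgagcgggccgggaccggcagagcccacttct
The Hmgcs1 window held 1 sterol regulatory element core, 4 CCAAT boxes and 1 Myb word. The Idi1, Mvd and Dhcr7 windows each held 2 CCAAT boxes and no other match, while the other 2 windows of Dhcr7 held no CCAAT box and 1 of them held an E-box. The Abca1 window held 1 E-box only. Over all 41 windows, 25 (61.0%) held a CCAAT box, against 37.4% of 32851 windows of the same length over the genome. The sterol regulatory element core was in 3 member windows (7.32%), those of Hmgcs1, Msmo1 and Srebf2, against 4.36% of all windows. The E-box was in 8 (19.5%), against 7.15%, and a Myb word in 11 (26.8%), against 28.3%. These matches describe letters in the windows and are not measured binding sites.

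Between mice labelled Mutant and Control, a few scattered genes of sterol and fatty acid metabolism changed, at most 1 in each role group. Of the 37 tested members, 5 passed the test (13.5%), against 9.97% of the 9951 genes tested, a share near that background. Of these, 4 rose, against 5.89% of all genes that were called higher, and 1 fell, against 4.08% called lower. Mvd, Srebf1, Elovl6 and Npc2 rose, and Dhcr7 fell. All calls rest on limma, with Benjamini-Hochberg adjusted p under 0.05 over all 9951 genes. The median log2 difference of the 37 members was 0.0028, and that of all genes tested was 0.02. Differences stayed within 0.3 on the log2 scale for 29 members (78.4%) and for 75.2% of all genes. The arrays of the 2 groups did not overlap for 5 members (13.5%), against 17.0% of all genes tested. The plot of differences by role shows the intervals, most of which cross 0.

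**Figure D1:**
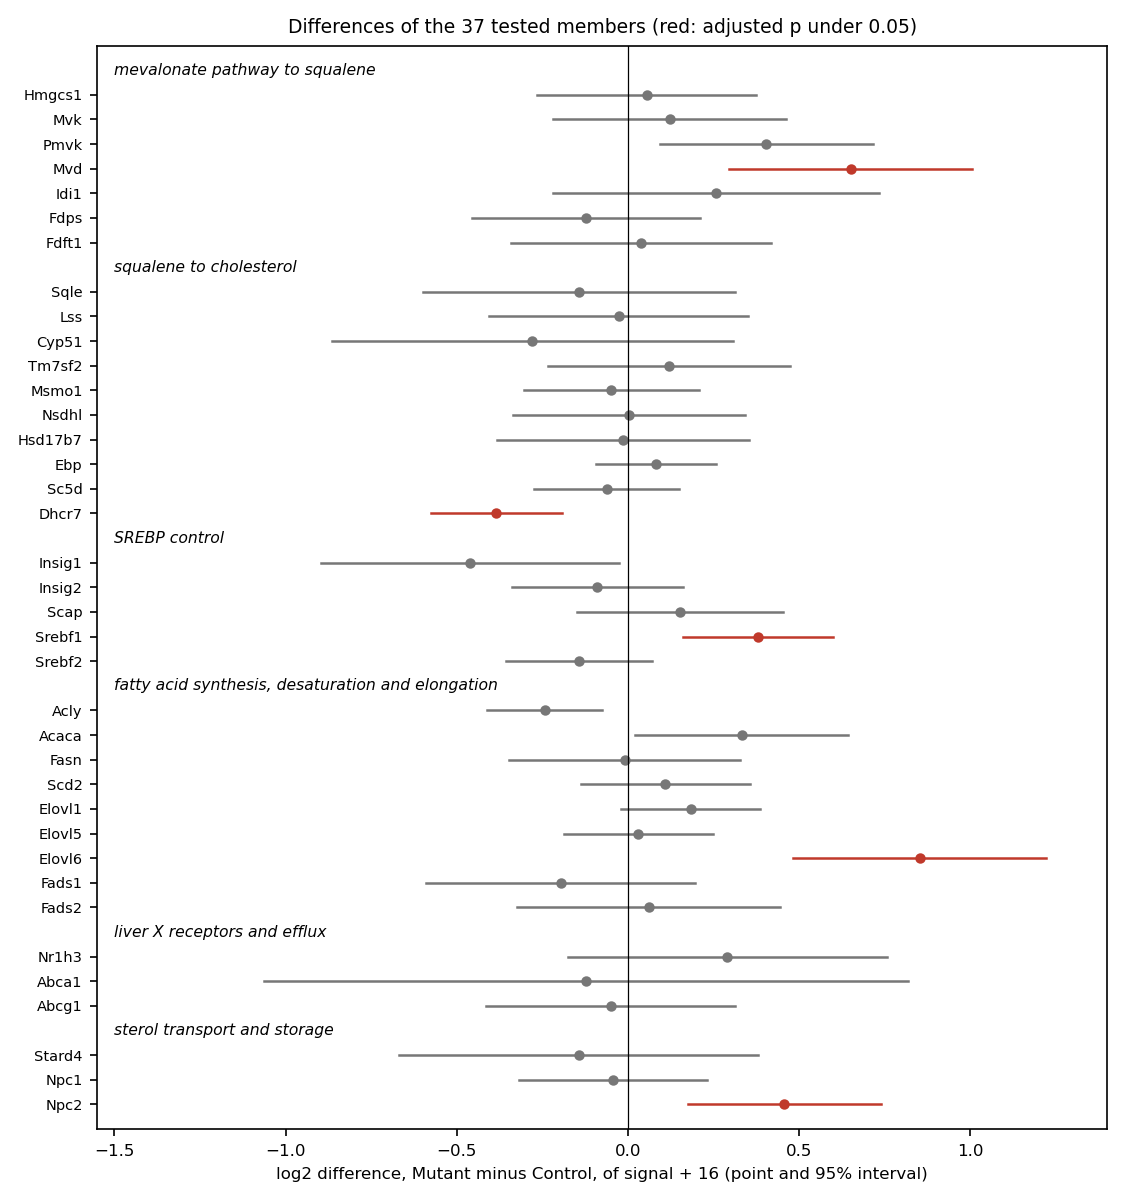
Log2 difference (Mutant minus Control, of signal + 16) with its 95% interval from limma for each of the 37 tested members, grouped by role. The 5 members past the threshold are red, with Elovl6 farthest to the right at 0.85 and Dhcr7 the only red one left of 0, at -0.38.

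With Xist as a 2-class covariate, which leaves Control replicate 1 to stand alone against the 4 Mutant mice, 0 of 37 members and 26 of 9951 genes (0.261%) were called. That fit assumes that the lone Control mouse varies like the others, and 3 members and 1028 genes had an unadjusted p under 0.05 in limma.

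In the early cholesterol pathway, from acetyl-CoA units to squalene, 1 of 7 enzymes rose and 6 did not pass, with a median log2 difference of 0.12. Mvd, mevalonate diphosphate decarboxylase, makes isopentenyl diphosphate, the building block of all isoprenoids. Its signal was 197, 153, 208 and 157 in Mutant mice, against 142, 87.9, 94.8 and 109 in Control mice. The 4 Mutant mice all lay above the 4 Control mice, with Control replicate 1 nearest to them. The means were 178.5 ± 27.7 in Mutant and 109 ± 24.1 in Control mice (SD, n = 4 each), a log2 difference of 0.65 ± 0.16 (SE, 1.57-fold, limma adjusted p = 0.0283). Adjusted for Xist it was 0.29 ± 0.22 (adjusted p = 0.737). A second Mvd probe set also did not overlap, with 153 to 209 in Mutant and 88.7 to 117 in Control mice and a difference of 0.62. Leaving out each array in turn, Mvd was called in 3 of 8 fits, with adjusted p from 0.0154 to 0.0891.

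Pmvk, phosphomevalonate kinase, acts directly before Mvd. It read 331, 301, 289 and 233 in Mutant mice, against 249, 237, 175 and 196 in Control mice. Only Mutant replicate 4 fell within the Control range, and the difference of 0.40 ± 0.14 did not pass (limma adjusted p = 0.0985). Without that array it was 0.50 and passed (adjusted p = 0.0398), but leaving out the lowest Mutant mouse raises the difference by construction. Of the 8 fits that left out 1 array, this was the 1 that called Pmvk (limma adjusted p from 0.0398 to 0.258). Mvk, mevalonate kinase, had a difference of 0.12 with an interval of -0.22 to 0.46. Its dimmer probe set differed by 0.46, with overlapping groups. With the mean of its probe sets Mvk differed by 0.29 and did not pass (limma adjusted p = 0.249). Hmgcs1, the cytosolic HMG-CoA synthase that opens the pathway, averaged 1286 ± 169 in Mutant and 1249 ± 247 in Control mice, with an interval of -0.26 to 0.38. Idi1, which isomerises isopentenyl diphosphate, differed by 0.26 with an interval of -0.22 to 0.73. Fdps, farnesyl diphosphate synthase, and Fdft1, squalene synthase, differed by -0.12 and 0.04, with intervals of -0.45 to 0.21 and -0.34 to 0.42.

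In the late pathway, from squalene to cholesterol, 1 of 10 enzymes fell and 9 did not pass, with a median log2 difference of -0.04. Dhcr7, 7-dehydrocholesterol reductase, catalyses the last step to cholesterol in one branch of the pathway. It read 373, 412.5, 431 and 421 in Mutant mice, against 519.7, 543, 558 and 534 in Control mice. All Mutant mice lay below all Control mice. The means were 409 ± 25.5 in Mutant and 539 ± 16 in Control mice (SD, n = 4 each), and Dhcr7 fell by 0.38 ± 0.09 on the log2 scale (SE, limma adjusted p = 0.0186). Adjusted for Xist the difference was -0.34 ± 0.14 (adjusted p = 0.453). The array has 1 Dhcr7 probe set, and the gene was called in 5 of 8 fits that each left out 1 array (adjusted p from 0.0216 to 0.0684).

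The 9 enzymes before Dhcr7 in the late pathway did not pass. Sqle, squalene epoxidase, a rate-controlling step, averaged 328 ± 56.1 in Mutant and 374 ± 130 in Control mice, with an interval of -0.60 to 0.31 for the log2 difference. Cyp51, lanosterol demethylase, had the widest interval among the 17 cholesterol enzymes, -0.87 to 0.31 around -0.28. Ebp, a sterol isomerase, and Sc5d, which introduces the last double bond before Dhcr7 acts, had narrow ones, -0.09 to 0.26 and -0.27 to 0.15. Lss, Tm7sf2, Msmo1, Nsdhl and Hsd17b7, which cyclise squalene epoxide or trim and reduce lanosterol derivatives, differed by between -0.05 and 0.12. Nsdhl and Ebp are the 2 members on the X chromosome, and their differences were 0.0028 and 0.08.

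**Figure D2:**
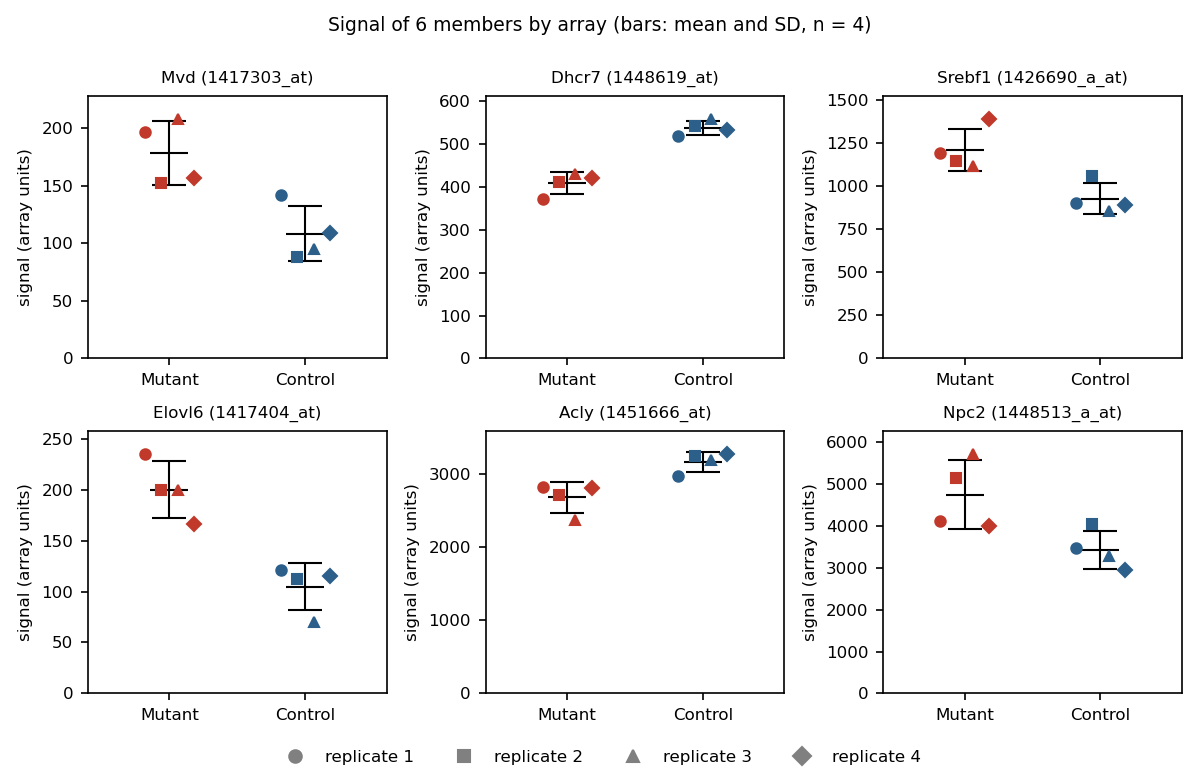
Signal on each array for the 5 members past the threshold and for Acly, with Mutant mice (red) left of Control mice (blue), a symbol for each replicate number, and the mean with SD as black bars. Mvd, Srebf1 and Elovl6 lie higher in all Mutant mice, Dhcr7 and Acly lower, and the groups of Npc2 overlap.

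Among the genes that control the pathway, 1 of 5 rose, Srebf1, and 4 did not pass. Srebf1, whose product SREBP-1 favours fatty acid genes, read 1193, 1147, 1113 and 1385 in Mutant mice, against 903, 1057, 857 and 887.5 in Control mice. The groups did not overlap, and Control replicate 2 came nearest to the Mutant mice. The means were 1209.6 ± 121 in Mutant and 926 ± 89.0 in Control mice (SD, n = 4 each), a log2 difference of 0.38 ± 0.10 (SE, 1.30-fold, limma adjusted p = 0.0360). Adjusted for Xist it was 0.41 ± 0.17 (adjusted p = 0.421). Of the 8 fits that left out 1 array, 1 called Srebf1, the fit without Control replicate 2 (adjusted p from 0.0186 to 0.116 over the 8). The single probe set does not separate the transcript forms of Srebf1.

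Srebf2, which encodes the sterol-responsive SREBP-2, averaged 546 ± 19.2 in Mutant and 606 ± 64.7 in Control mice, with an interval of -0.35 to 0.07, and its other probe set differed by -0.37. Insig1, itself a target of SREBP, read 129, 108, 122 and 182.5 in Mutant mice, against 160.5, 140.5, 228 and 248 in Control mice. The groups overlapped through Mutant replicate 4, and the difference of -0.46 ± 0.20 did not pass (limma adjusted p = 0.173). Insig2 and Scap differed by -0.09 and 0.15.

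Of 9 tested genes of fatty acid synthesis, desaturation and elongation, 1 rose, Elovl6, and 8 did not pass, with a median log2 difference of 0.06. Elovl6 extends palmitate to stearate and is a known target of SREBP-1. It read 235, 199.9, 199 and 166 in Mutant mice, against 121, 113, 70.5 and 115 in Control mice. All Mutant mice lay above all Control mice, and Control replicate 3 was the lowest. The means were 200.0 ± 27.9 in Mutant and 105 ± 23.1 in Control mice (SD, n = 4 each), a log2 difference of 0.85 ± 0.17 (SE, 1.81-fold, limma adjusted p = 0.00953). Adjusted for Xist it was 0.65 ± 0.27 (adjusted p = 0.429).

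Elovl6 was called in 8 of 8 fits that each left out 1 array, with adjusted p from 0.00880 to 0.0355. Its other 2 probe sets differed by less, 0.24 and 0.19, and their groups overlapped. With the mean of its probe sets the difference was 0.43 and did not pass (adjusted p = 0.0854).

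Acly, ATP citrate lyase, makes the cytosolic acetyl-CoA that feeds both sterols and fatty acids. It read 2826, 2718, 2377 and 2809 in Mutant mice, against 2973, 3244, 3197 and 3271 in Control mice. The groups did not overlap, but the difference of -0.24 ± 0.08 did not pass (limma adjusted p = 0.0711), and it did after quantile normalization (adjusted p = 0.0450). A second probe set did not overlap either, with 774 to 1011 in Mutant and 1056 to 1233 in Control mice (difference -0.36), and another did, at -0.11. Acaca, acetyl-CoA carboxylase, which commits acetyl-CoA to fatty acids, differed by 0.33 ± 0.14 (adjusted p = 0.170), and its dimmer probe set by -0.26. Acaca passed without Control replicate 4 (difference 0.47, adjusted p = 0.0359), the highest of the 8 arrays, whose removal raises the difference by construction. Of the 8 fits that left out 1 array, this was the 1 that called it (adjusted p from 0.0359 to 0.397). With the mean of its probe sets the Acaca difference was 0.04 (adjusted p = 0.927).

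Fasn, the synthase that builds palmitate, averaged 556 ± 124 in Mutant and 552 ± 67.8 in Control mice, with an interval of -0.35 to 0.33. Scd2, the desaturase form that was detected here, averaged 3832 ± 194 in Mutant and 3591 ± 677 in Control mice, and its interval was -0.14 to 0.36, while its other 2 probe sets differed by -0.10 and -0.50. The elongases Elovl1 and Elovl5 differed by 0.18 and 0.03. The desaturases of polyunsaturated fatty acids, Fads1 and Fads2, differed by -0.20 and 0.06.

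None of the 3 tested genes of sterol sensing and efflux passed, with a median log2 difference of -0.05. Nr1h3, the liver X receptor alpha gene, was dim and read 37.2, 61.5, 61.8 and 37.5 in Mutant mice, against 41.1, 28.6, 30.9 and 48.1 in Control mice. The groups overlapped, and the difference of 0.29 ± 0.21 did not pass (limma adjusted p = 0.446). Abca1 and Abcg1, which export cholesterol, differed by -0.12 and -0.05, with intervals of -1.06 to 0.82 and -0.41 to 0.31. The dimmer probe sets of Abca1 differed by -0.53 and -0.51, and that of Abcg1 by -0.21, all with overlapping groups. The Abca1 interval is wide beside a single high Control mouse.

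Of the 3 tested genes of sterol transport, 1 rose, Npc2, and 2 did not pass. Npc2 is the soluble lysosomal protein that hands cholesterol to Npc1 for release from the lysosome. It read 4111, 5146, 5713 and 4007 in Mutant mice, against 3469, 4039, 3290.4 and 2942 in Control mice. The groups overlapped, since Control replicate 2 lay just above Mutant replicate 4. The means were 4744 ± 825 in Mutant and 3435 ± 458 in Control mice (SD, n = 4 each), a log2 difference of 0.46 ± 0.13 (SE, 1.37-fold, limma adjusted p = 0.0457). Adjusted for Xist it was 0.43 ± 0.21 (adjusted p = 0.546).

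A second Npc2 probe set did not overlap, with 4122 to 4862 in Mutant and 3208 to 3414 in Control mice and a difference of 0.45. Another differed by 0.43 and a dim one by -0.14. With the mean of its probe sets Npc2 differed by 0.30 and did not pass (adjusted p = 0.167), nor did it after quantile normalization (difference 0.46, adjusted p = 0.0771). It was called in 2 of 8 fits that each left out 1 array (adjusted p from 0.0260 to 0.131). Macrophages are rich in lysosomes. The summed signal of 16 macrophage and dendritic cell markers was 1419 to 1890 in Mutant and 1064 to 2406 in Control mice. Of 11 tested markers 0 were called, against 9.97% of all genes tested. The part of these cells in the Npc2 level was not tested. Npc1, the membrane partner, differed by -0.04 with an interval of -0.32 to 0.23. Stard4, a cytosolic sterol carrier and SREBP-2 target, averaged 313 ± 43.9 in Mutant and 366 ± 143 in Control mice, with an interval of -0.67 to 0.38.

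Within the Control group, 2 mice stood at the ends of the range for the exporters and, in the opposite direction, for some of the synthesis enzymes. This pattern was seen in the data and is given as a description, with no test. Control replicate 2 had an Abca1 signal of 2717, against 436 to 756 in the other Control mice and 683 to 972 in Mutant mice. Its other 2 Abca1 probe sets read 694 and 280.5 there, against 131 to 169.9 and 55.5 to 95.6 in the other Control mice and 63.6 to 224.7 and 33.4 to 99.4 in Mutant mice, so all 3 probe sets were highest in that mouse. Abcg1 read 1947 in Control replicate 2, against 1022 to 1299.5 in the other Control mice and 1161 to 1315.5 in Mutant mice.

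The same mouse was lowest of the Control mice for most early synthesis enzymes. Of the 7 enzymes from acetyl-CoA to squalene, 5 were lowest of the 4 Control mice in replicate 2 (71.4%), against 30.9% of all genes tested. Over all 17 cholesterol enzymes it was 8 (47.1%), and their median lay 0.175 below the Control mean on the log2 scale. It was the highest Control mouse for 3 of the 17, Lss, Tm7sf2 and Hsd17b7 (17.6%, against 30.8% of all genes). Idi1 read 450 there, against 572 to 1032 in the other Control mice and 673.5 to 979 in Mutant mice. Sqle read 256, against 314 to 556 in the other Control mice and 270.3 to 384 in Mutant mice. Stard4 read 201, against 317 to 541 in the other Control mice and 264 to 370.2 in Mutant mice, and was the lowest of the 8 arrays on all 3 of its probe sets.

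**Figure D3:**
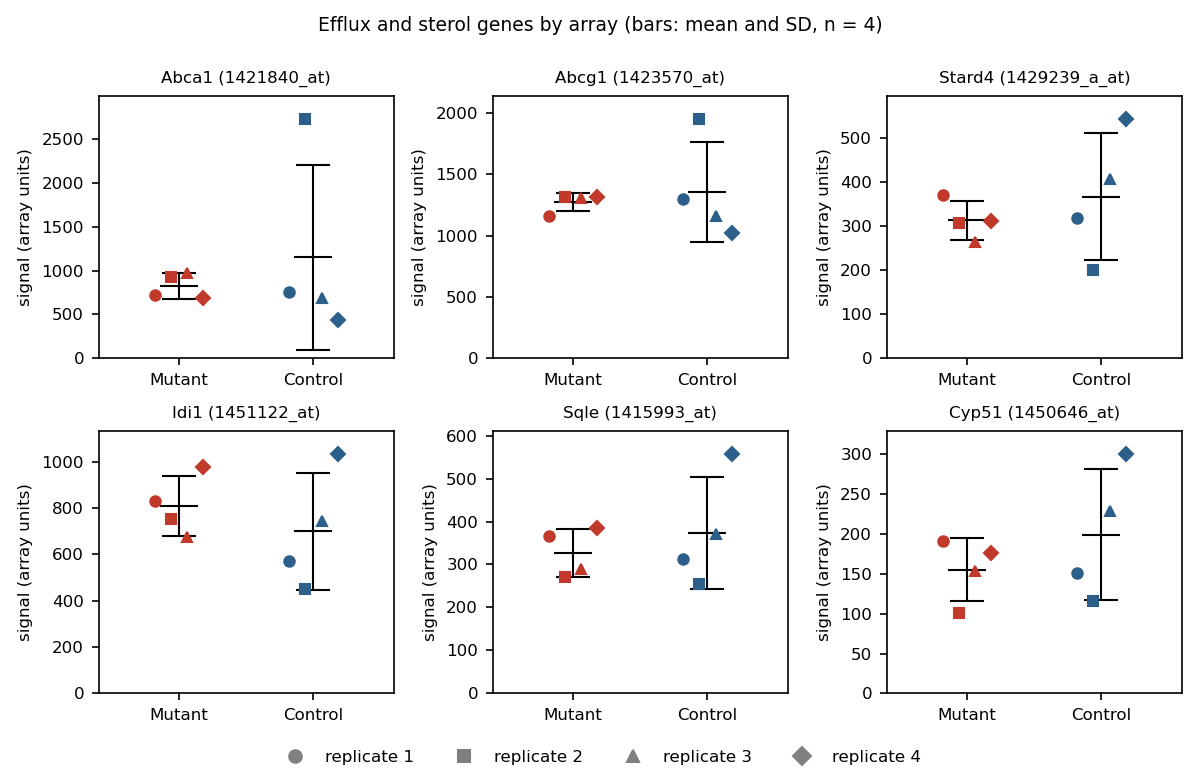
Signal on each array for 2 cholesterol exporters and 4 sterol genes, with Mutant mice (red) left of Control mice (blue) and the mean with SD as black bars. Control replicate 2 (square) is highest for Abca1 and Abcg1 and lowest of the Control mice for the other 4 genes, and Control replicate 4 (diamond) is at the other end of each.

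Control replicate 4 was the highest Control mouse for 7 of the 17 cholesterol enzymes (41.2%, against 26.9% of all genes) and the lowest for 4, Lss, Tm7sf2, Ebp and Sc5d (23.5%, against 28.8%). Their median lay 0.0747 above the Control mean on the log2 scale. This mouse had the lowest Abca1 and Abcg1 signals of the 8 arrays on their brightest probe sets, 436 and 1022. Sqle, Cyp51, Idi1, Fdps, Stard4 and Insig1 were highest of all 8 arrays in it, as with Fdps at 1462.5, against 840 to 1109 in the other Control mice and 880.0 to 1124.5 in Mutant mice. The 4 Mutant mice lay closer together for several of these genes. The log2 SD of Sqle was 0.238 in Mutant and 0.456 in Control mice, that of Stard4 0.191 in Mutant and 0.575 in Control mice, and that of Abca1 0.248 in Mutant and 1.11 in Control mice. Other probe sets of these genes differed less in spread, with 0.193 in Mutant and 0.19 in Control mice for one of Stard4 and 0.744 in Mutant and 1.04 in Control mice for one of Abca1. Over the 17 cholesterol enzymes, 11 had the larger SD in Control mice (64.7%), against 50.7% of all genes tested, and the median SD was 0.203 in Mutant and 0.22 in Control mice.

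Besides Abca1 and Abcg1, 7 genes known to respond to liver X receptors were read in Control replicate 2, chosen after the pattern had been seen. Of these, 4 were highest of the Control mice in it, where 30.8% of all genes tested were. Highest of all 8 arrays were 3, Mylip, Apoe and Scd2, with no such share over all genes at hand. Mylip, a ubiquitin ligase for lipoprotein receptors, read 1859 there, against 1333 to 1427.5 in the other Control mice and 1039 to 1305 in Mutant mice. Apoe, the lipoprotein carrier, read 414, against 145 to 229.9 in the other Control mice and 254 to 394 in Mutant mice. Scd2 read 4586, against 3067 to 3370.3 in the other Control mice and 3662 to 4092 in Mutant mice. Lpcat3, Pltp and Fasn were not highest there. Some macrophage markers were also high in that mouse and others were not. Of 16 macrophage and dendritic cell markers, 5 were highest of all 8 arrays in Control replicate 2, with no such share over all genes at hand. These were C1qa, C1qb, C1qc, Fcgr3 and Cd68, at 90.5, 135.6, 60.8, 44.2 and 66.0. Adgre1 was lowest of the Control mice there, at 30.4, and Lyz2, Vcam1 and Itgax were higher in Control replicate 4. The sum of all 16 was 1851 there, against 1064 to 2406 in the other Control mice and 1419 to 1890 in Mutant mice. Without the MHC class II genes Cd74, H2-Aa and H2-Ab1, the sum of the other 13 was 828 there, against 416 to 759.7 in the other Control mice and 492 to 685 in Mutant mice. The part of these cells in the Abca1 and Apoe levels was not tested.

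Without Control replicate 2, several differences moved. The genes named here stood at an end of the Control range in that mouse, so the direction of their shifts was fixed by that choice. The difference of Apoe passed, at 0.71 (limma adjusted p = 0.0375), against 0.43 (adjusted p = 0.341) over all 8 arrays. Others did not pass, with Abca1 at 0.41 (adjusted p = 0.216) and Scd2 at 0.23 (adjusted p = 0.0773). Stard4 was at -0.39 (adjusted p = 0.196), Cyp51 at -0.49 (adjusted p = 0.247), Sqle at -0.30 (adjusted p = 0.370) and Insig1 at -0.59 (adjusted p = 0.0856). In that fit 4 of 37 members were called, beside 949 of 9845 genes. Mvd was no longer among the called members (adjusted p = 0.0594). The map of deviations by array shows the same contrast between Control replicates 2 and 4.

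**Figure D4:**
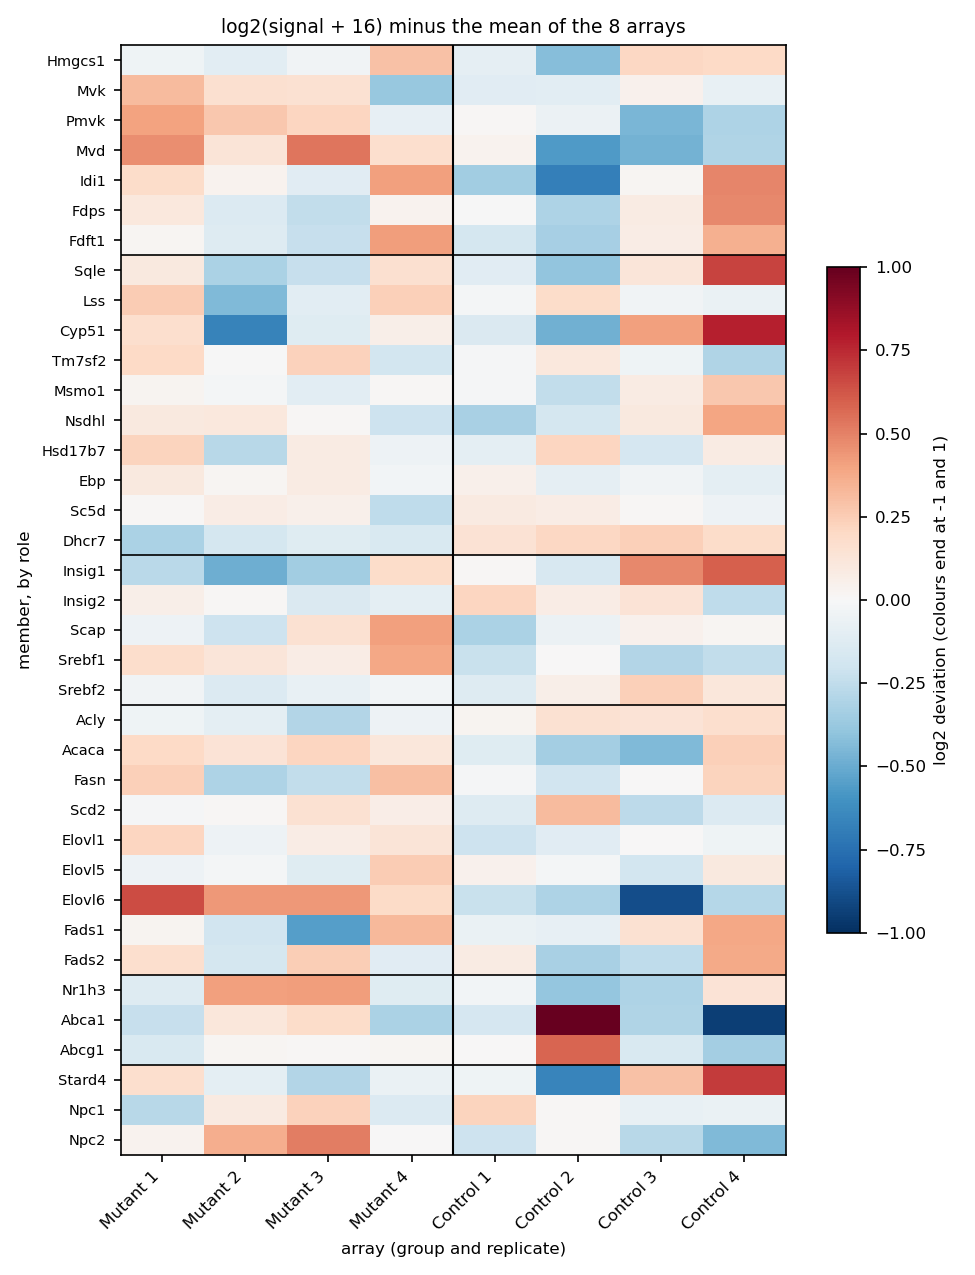
Each row is a tested member and each column an array, Mutant mice left and Control mice right. Colour gives log2(signal + 16) minus the mean of the 8 arrays, ending at -1 and 1, and horizontal lines divide the roles. Abca1 is dark red in Control 2 and dark blue in Control 4, while Idi1, Sqle, Cyp51 and Stard4 run the other way in those mice.

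A further list of 37 genes of sterol and fatty acid metabolism outside the 40 served for comparison, and 24 of its genes could be tested. Of these, 3 rose, 1 fell and 20 did not pass (16.7% called, against 9.97% of all genes), with a median log2 difference of 0.05. Acat1, the mitochondrial thiolase of ketone and isoleucine metabolism, averaged 2714 ± 292 in Mutant and 1728 ± 123 in Control mice, a rise of 0.64 ± 0.09 (limma adjusted p = 0.00188). Hacd3, a dehydratase of the fatty acid elongation cycle in which Elovl6 acts, rose by 0.34 ± 0.08 (adjusted p = 0.0206). Prkaa1, a catalytic subunit of the AMP-activated kinase that restrains acetyl-CoA carboxylase, rose by 0.70 ± 0.16 (adjusted p = 0.0213). Stard3, a sterol transfer protein of late endosomes, averaged 551 ± 20.3 in Mutant and 697 ± 25.3 in Control mice and fell by 0.33 ± 0.08 (adjusted p = 0.0262), a call lost without Control replicate 2 (adjusted p = 0.0507). The groups did not overlap for any of these 4, and for 6 of the 24 in all (25.0%, against 17.0% of all genes). Adjusted for Xist, which leaves Control replicate 1 alone against the Mutant mice, Acat1 differed by 0.54 and Hacd3 by 0.28. Prkaa1 differed by 0.79 and Stard3 by -0.32 in that fit. Mbtps1, the first protease that cuts SREBP, averaged 2093 ± 230 in Mutant and 2904 ± 593 in Control mice and did not pass (difference -0.45, adjusted p = 0.0614).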

How the data were processed

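Per the labels, biotin-labelled cRNA of double-positive thymocytes from 8 mice was hybridised to Affymetrix mouse arrays. The authors computed the deposited intensities, linear and 1 for each probe set on each array, with GCOS (software per the submitters' processing notes). No source used here states which version or settings. The 2% trimmed mean of the deposited intensities was 250.0 on every array, so arrays had been scaled to a common level. Array medians were 30.0 to 37.9. The number of arrays and signals near background limit the precision. Batches could not be checked, since no scan dates were seen.

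Here intensities were converted to log2(signal + 16), which understates folds of dim genes. Control probe sets (64 of 45101) were left out, and 34945 probe sets had 1 symbol. A probe set was kept at a signal of at least 33.8, the table median, on at least 4 arrays. The tests were two-sided and came from limma 3.58.1 under R 4.3.3, using lmFit and eBayes with a trend in the variance. P-values were adjusted by Benjamini-Hochberg over 9951 genes. Every adjusted p-value is from limma. The fit was tested on simulated data with known changes. Alternatives changed the normalization, pseudocount, filter, probe set choice, variance model and array weights, added the replicate number or the Xist level, or left out each array. Members, gene lists and the Xist covariate were chosen with earlier results of these data known. Members past the threshold are given in full, and in a role group without one the tested member with the largest difference. Others named in full were chosen after their values were seen.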

Additional observations from a re-analysis of the deposited data

Results flagged for a closer look

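Among 78 groups of 4 arrays, 5 held an array well away from the rest of its group, where about 1 in 20 would do so by chance. Abca1 read 2717.2 in Control replicate 2, against 435.6 to 756.2 in the other Control mice. Elovl6 read 70.5 in Control replicate 3, against 112.7 to 120.7 in the other Control mice, and without that array its difference was still called. Hmgcs1 read 1537.4 in Mutant replicate 4, the array with the high 18S ribosomal RNA control, against 1166.3 to 1222.0 in the other Mutant mice. Abcg1 read 1160.8 in Mutant replicate 1, against 1304.2 to 1315.5 in the other Mutant mice. Xist read 4358.5 in Control replicate 1, against 23.4 to 36.7 in the other Control mice.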

How the results depend on the processing

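No difference of a called member changed sign under any of the alternatives run. The number of called members, 5 in the fit as reported, was 2 without a filter on dim probe sets, 3 with the mean of all probe sets, 3 without a variance trend, 8 with array weights and 0 after adjustment for Xist. After quantile normalization it was again 5, with Acly called in place of Npc2. It ran from 1 to 5 when each array was left out, with 1 without Control replicate 3 or Mutant replicate 1, 2 without Mutant replicate 2 or 3 and 3 without Control replicate 1 or 4. The number of called genes, 992, was 1742 with array weights and 26 after adjustment for Xist, and ran from 496 to 1193 with each array left out. It was 496 without Control replicate 3 and 606, 515 and 578 without Mutant replicates 1, 2 and 3. The causes were not tested. Deviations of arrays of the same replicate number correlated at r = 0.003, 0.172, -0.274 and 0.36. Of 4 Mutant arrays, 0 correlated best with the Control of their own number, though replicate 4 came close (0.36, against 0.369 for its best). With the replicate number as a block, 1036 genes and 5 members were called. Weighting arrays also called Insig1 (-0.63), Pmvk (0.52) and Acly (-0.23).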
